A study of Mus musculus with 9 samples.

Results

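The folding machinery of the endoplasmic reticulum was examined through 10 genes: the chaperones Hspa5, Hsp90b1, Calr and Canx, the cochaperones Dnajb9 and Dnajc3, and the disulfide enzymes Pdia3, Pdia4, P4hb and Qsox1. The array reads them with 18 probe sets whose annotation gives one of these symbols and no other, out of 12422 that are not controls. They are 10 of 8251 genes the array names this way. Measurements came from 9 arrays of total RNA from both ventricles of female mice aged 3 months, 1 array per numbered mouse. Every mouse carried an IGF1R transgene, which encodes the receptor of the growth factor IGF1. In 3 mice (IGF1R) nothing else was added. A second transgene gave constitutively active PI3K in 3 others (IGF1R-caPI3K) and dominant negative PI3K in the last 3 (IGF1R-dnPI3K), each as a form of the subunit p110. The strain and the transgene promoters were not given in the sources used here. Mice without a transgene, or with a PI3K transgene alone, were not analysed here, so no level below is relative to a normal heart.

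Proteins that enter the secretory pathway are folded in the lumen of the endoplasmic reticulum. Hspa5 (also called BiP) binds unfolded chains, and J-domain cochaperones such as Dnajb9 and Dnajc3 drive its ATPase cycle. Calr and Canx hold glycoproteins, with Pdia3 as their partner for disulfide bonds. When unfolded protein accumulates, the sensors Atf6, Ern1 and Eif2ak3 start the unfolded protein response, in which Atf6 and Xbp1 raise the transcription of many of these genes. In the heart this system serves membrane and secreted proteins of myocytes and the collagen made by fibroblasts.

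The classical DNA element of this response, the ER stress response element, reads CCAAT, then 9 bases of any kind, then CCACG. NF-Y binds its first part and Atf6 its second. Both strands of the 250 bases upstream of each gene start in RefSeq (GRCm38.p6) were searched, and all 10 genes matched an entry. The element stood upstream of 5 of the 10 genes (Hspa5, Hsp90b1, Calr, Canx and Dnajc3). It stood upstream of 0.113% of all 32851 starts searched, or 0.13% of 27025 genes. Because the element belongs to a response that raises many of these genes, this contrast is a description and no independent result. CCAAT on its own was found for 9 of the 10 genes and at 33.8% of all starts, and CCACG for 7 of the 10 and at 28.3%; both counts include copies within the whole element. The related motifs ATTGG, 1 base, CCACG and TGACGTGG were found for 0 of the 10 genes, against 0.0304% and 0.563% of all starts (0.037% and 0.603% of genes). The upstream sequences of 5 genes are shown: 3 with the complete element, and 2 without it whose transcripts changed below. In the first 3, capitals mark the complete element in either orientation. In the last 2, which have no complete element, capitals mark CCAAT and CCACG.
Hspa5 (chr2:34771840-34772089, plus strand): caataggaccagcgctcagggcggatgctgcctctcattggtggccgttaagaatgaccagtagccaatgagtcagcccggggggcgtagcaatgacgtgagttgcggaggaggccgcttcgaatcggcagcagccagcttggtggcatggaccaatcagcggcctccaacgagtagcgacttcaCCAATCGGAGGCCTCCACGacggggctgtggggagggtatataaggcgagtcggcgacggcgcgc
Hsp90b1 (chr10:86705445-86705694, minus strand): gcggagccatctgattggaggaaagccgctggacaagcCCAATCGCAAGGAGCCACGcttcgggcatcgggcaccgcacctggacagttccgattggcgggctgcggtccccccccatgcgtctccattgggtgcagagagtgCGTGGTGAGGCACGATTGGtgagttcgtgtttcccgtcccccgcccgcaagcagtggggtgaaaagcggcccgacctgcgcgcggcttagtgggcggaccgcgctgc
Dnajc3 (chr14:118937682-118937931, plus strand): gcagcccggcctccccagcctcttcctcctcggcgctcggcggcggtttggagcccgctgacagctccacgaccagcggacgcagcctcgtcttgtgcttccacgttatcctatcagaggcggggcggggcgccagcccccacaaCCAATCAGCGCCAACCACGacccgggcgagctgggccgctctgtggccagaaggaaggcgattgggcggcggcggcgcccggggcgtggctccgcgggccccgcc
Dnajb9 (chr12:44210069-44210318, minus strand): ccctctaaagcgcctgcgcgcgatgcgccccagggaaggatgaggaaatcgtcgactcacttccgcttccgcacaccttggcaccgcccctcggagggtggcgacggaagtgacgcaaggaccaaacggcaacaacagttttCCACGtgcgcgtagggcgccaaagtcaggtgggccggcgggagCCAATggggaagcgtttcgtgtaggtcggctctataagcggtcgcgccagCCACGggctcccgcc
Pdia3 (chr2:121413652-121413901, plus strand): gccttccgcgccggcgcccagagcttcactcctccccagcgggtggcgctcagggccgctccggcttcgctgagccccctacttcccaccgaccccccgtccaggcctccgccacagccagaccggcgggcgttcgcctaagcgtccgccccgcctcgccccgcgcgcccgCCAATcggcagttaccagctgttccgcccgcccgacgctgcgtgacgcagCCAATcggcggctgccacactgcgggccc
Sequences run 5′ to 3′ in the direction of the gene. The element lay 65 to 47 bases before the start of Hspa5, 105 to 87 before Dnajc3, 145 to 127 before Canx and 162 to 144 before Calr. Hsp90b1 held 2 copies, 212 to 194 and 107 to 89 bases before its start, one in each orientation. For Canx and Calr only the element with 10 bases on each side is shown, as the remaining members that hold it.
Canx (within chr11:50325674-50325923, minus strand): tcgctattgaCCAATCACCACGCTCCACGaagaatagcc
Calr (within chr8:84846932-84847181, minus strand): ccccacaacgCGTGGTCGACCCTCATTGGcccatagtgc

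**Figure D1:**
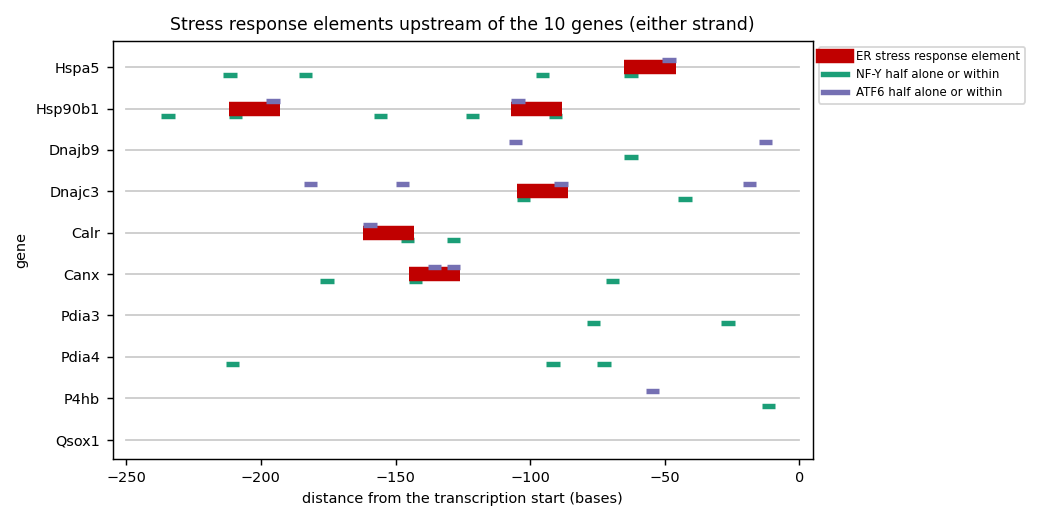
Map of the 250 bases upstream of each gene start (x axis, distance in bases), with complete stress response elements as thick red bars and its first and second parts as thin bars on either strand. A complete element appears for Hspa5, Hsp90b1, Dnajc3, Calr and Canx, and Qsox1 has neither part.

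Signals below are the deposited intensities on a linear scale, with no log. Differences come from one limma model of log2 signal over all 9 arrays and are given as estimate ± SE, with p-values adjusted by Benjamini-Hochberg over all 7898 probe sets tested and a threshold of 0.05. Of the 18 probe sets, 14 were bright enough to be tested. The array median ran from 160.6 to 196.7. In these female mice, 5 probe sets of 4 Y-linked genes reached at most 59.4, which marks the background. The only Calr probe set (93523_at) lay between 7 and 42.4 on all arrays, so calreticulin was not measured above that background. Another 3 were not tested. Probe set 161868_r_at of Dnajc3 (2.7 to 30.3) and 96601_at of Qsox1 (9.9 to 26.1) also lay within the background, while 102415_r_at of Dnajc3 ran from 33 to 137.3. A gene's probe sets can bind different stretches of its transcript and can disagree. Where the probe sets of these genes bind was not examined.

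The arrays differed in ways that bear on every comparison. The 3' to 5' signal ratio of the CreX control was 1.05 to 1.26 on IGF1R arrays, 1.74 to 1.89 on IGF1R-caPI3K arrays and 1.79 to 1.83 on IGF1R-dnPI3K arrays. That of Gapdh, from the RNA of the heart itself, was 0.747 to 0.818, 0.843 to 0.873 and 0.844 to 0.943. That of pyruvate carboxylase overlapped between IGF1R (1.4 to 1.71) and IGF1R-caPI3K arrays (1.57 to 1.87), and was higher on IGF1R-dnPI3K arrays than on IGF1R arrays (1.79 to 3.25). The ratios of Actb and the transferrin receptor did not set IGF1R arrays apart in this way. For Actb the IGF1R-dnPI3K range lay within the IGF1R range, and the IGF1R-caPI3K arrays lay at or below it. For the transferrin receptor IGF1R arrays overlapped both other groups. The 3' to 5' ratios thus did not all shift together. The IGF1R group still cannot be told apart from the CreX and Gapdh differences in either comparison with it. The same holds for pyruvate carboxylase against IGF1R-dnPI3K arrays. IGF1R-dnPI3K replicate 3 had the lowest mean correlation with the other arrays (0.927, against 0.947 to 0.956). Over the 14 tested probe sets the median SD of log2 signal was 0.24 for IGF1R, 0.15 for IGF1R-caPI3K and 0.50 for IGF1R-dnPI3K.

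Cell type markers moved with the groups too. All 10 cardiomyocyte markers found were above background. The summed signal of 11 fibroblast and matrix markers was 39458 to 43161 with IGF1R alone, 42643 to 46389 with active PI3K and 28634 to 33103 with dominant negative PI3K. That of 8 macrophage markers was 4231 to 4493, 4202 to 4466 and 2441 to 3563. Both lists are thus lowest in IGF1R-dnPI3K mice, without overlap with the other groups; 5 of 11 and 3 of 7 tested markers fell against IGF1R. The 10 cardiomyocyte markers summed to 160998 to 173408, 175242 to 184492 and 191031 to 239542. Against IGF1R, 5 of 10 were higher and 1 lower in IGF1R-dnPI3K mice, and 1 was lower in IGF1R-caPI3K mice. Of 9 B and plasma cell markers, which come from cells rich in these chaperones, the sums overlapped (1281 to 1498, 1239 to 1467 and 1321 to 1722). Of 6 tested, 1 was lower in IGF1R-caPI3K than in IGF1R mice, and 1 was lower in IGF1R-caPI3K than in IGF1R-dnPI3K mice. Skeletal muscle markers, 4 of 10 of them at or under background, summed to 12259 to 13228, 17738 to 19401 and 3964 to 6156; against IGF1R, IGF1R-dnPI3K mice were lower for 3 of 6 tested and higher for 1. Smooth muscle markers summed to 4376 to 4648, 4244 to 4378 and 5084 to 5975, highest in IGF1R-dnPI3K mice, with 0 of 6 passing. Those of pancreatic acinar cells, a secretory cell type, summed to 627 to 1073, 1245 to 1339 and 1184 to 1268, lowest in IGF1R mice. Of 3 tested, 1 was higher in each comparison with IGF1R, and Prss2 and Rnase1 lay at or under background. No marker found in any list was at 0 on all arrays. In whole ventricle RNA, fewer cells of a type and less RNA per cell cannot be told apart.

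**Figure D2:**
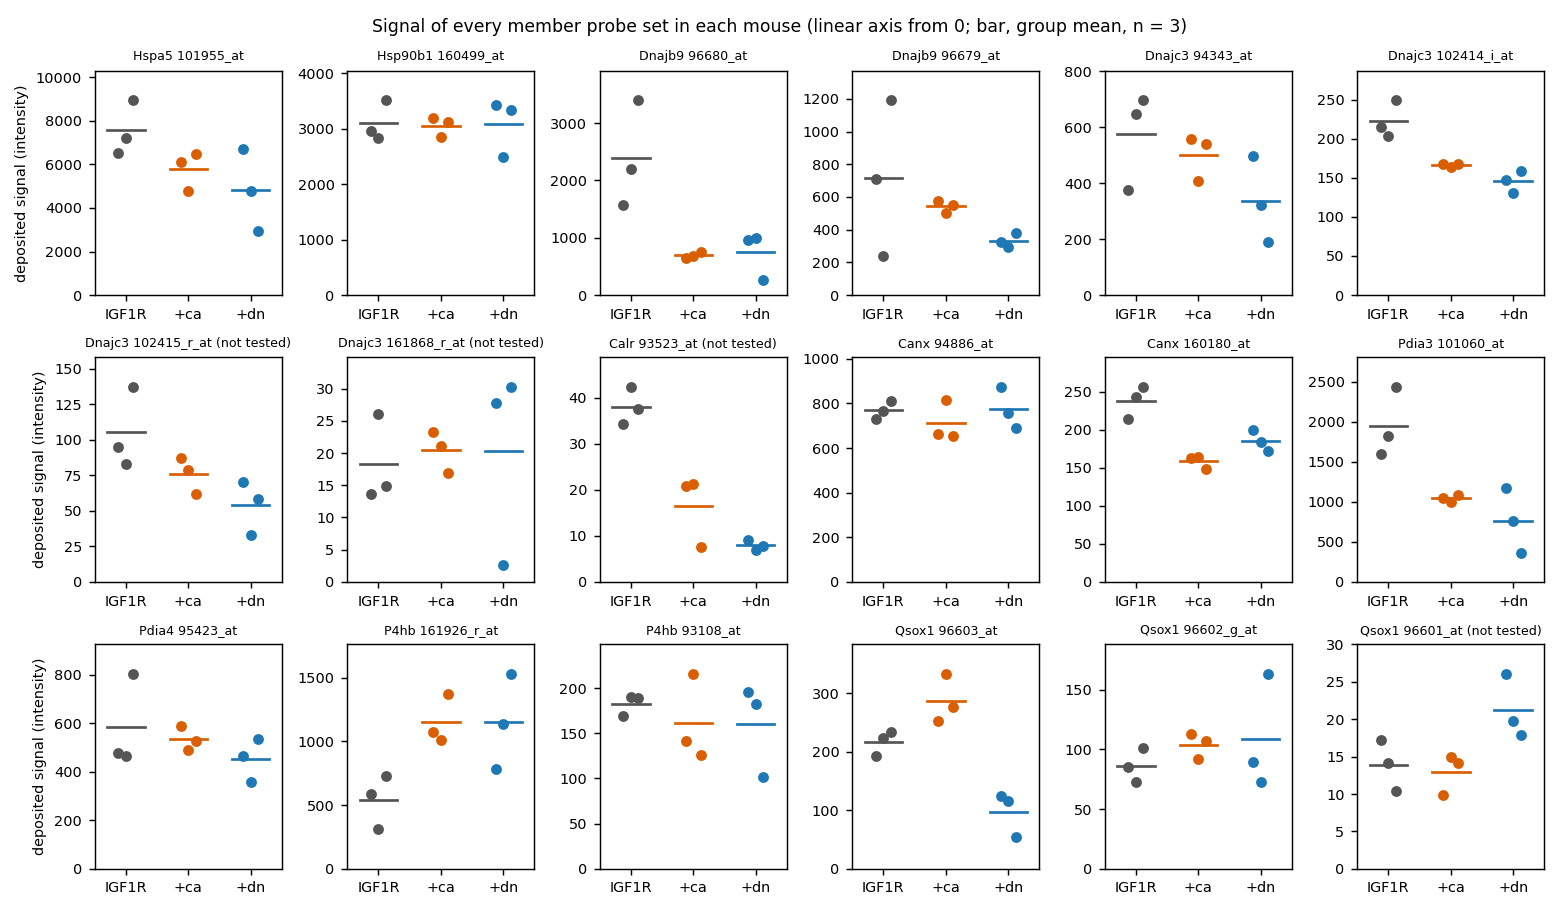
Deposited signal (y axis, linear from 0) of all 18 probe sets in each mouse, by group (IGF1R; +ca, IGF1R-caPI3K; +dn, IGF1R-dnPI3K), with the group mean as a bar (n = 3). Dnajb9 96680_at and Pdia3 are highest in the 3 IGF1R mice, Hsp90b1 overlaps in all groups, and Qsox1 96603_at is lowest in the 3 IGF1R-dnPI3K mice.

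The effect of dominant negative PI3K was examined in IGF1R-dnPI3K against IGF1R mice. Transcripts of the cochaperones Dnajb9 and Dnajc3, the glycoprotein disulfide enzyme Pdia3 and the sulfhydryl oxidase Qsox1 fell on 1 probe set each, and P4hb, the founding protein disulfide isomerase, rose on 1. The major chaperones did not pass. Of 14 tested member probe sets, 4 fell and 1 rose, beside 7.80% and 5.70% of all probe sets tested (13.5% in either direction). The median log2 difference of the 14 was -0.49, against -0.09 over all probe sets tested. Scaling the arrays to a common median moved these to -0.32 and 0.08. The groups did not overlap for 6 of the 14, 5 lower and 1 higher, beside 34.4% of all (20.8% lower and 13.6% higher). An unadjusted p under 0.05 was reached by 7 of the 14, beside 32.2% of all.

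Dnajb9, which recruits Hspa5 to its clients and is a strong target of the unfolded protein response, had the largest difference. On probe set 96680_at its signal was 1577.4, 2195 and 3406.2 in IGF1R mice. It was 962.4, 1002.8 and 264.1 in IGF1R-dnPI3K mice, so every one of these lay below every IGF1R mouse. The log2 difference was -1.84 ± 0.44 (limma adjusted p = 0.0263), a 3.59-fold lower level. IGF1R-dnPI3K replicate 3 carries part of its size: without that array it was -1.21 ± 0.25 (adjusted p = 0.0231). Its second probe set, 96679_at, spread from 239.5 to 1194.1 within IGF1R mice and overlapped the 294.2 to 380.7 of IGF1R-dnPI3K mice, with a difference of -0.83 ± 0.44 (adjusted p = 0.218).

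Dnajc3, known as p58IPK, is a cochaperone of the lumen and an inhibitor of the kinase Eif2ak3. Its probe set 102414_i_at read 215.4, 203.9 and 249.8 in IGF1R mice and 147.3, 131.2 and 158.6 in IGF1R-dnPI3K mice. The groups were separate and tight, and the difference was -0.61 ± 0.18 (limma adjusted p = 0.0483). After quantile normalization it was -0.44 and did not pass (adjusted p = 0.137). The brighter probe set 94343_at, at 376.5, 649.1 and 697.9 against 496.7, 320.7 and 190.2, overlapped and did not pass (-0.83 ± 0.33, adjusted p = 0.112).

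Among the disulfide enzymes, Pdia3 read 1595.1, 1820.3 and 2434.6 in IGF1R mice and 1169.1, 761.8 and 355.3 in IGF1R-dnPI3K mice. The groups were separate, and the 3 IGF1R-dnPI3K mice differed widely among themselves. Its log2 difference was -1.49 ± 0.34 (limma adjusted p = 0.0219), or -1.02 ± 0.21 without IGF1R-dnPI3K replicate 3 (adjusted p = 0.0197). Pdia4, a disulfide isomerase with an extra thioredoxin domain, overlapped, at 583 ± 192 and 454 ± 90.8 (SD, n = 3 each), with a difference of -0.34 ± 0.22 (adjusted p = 0.324).

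P4hb also serves as the beta subunit of collagen prolyl 4-hydroxylase. Its probe set 161926_r_at read 587.2, 311.8 and 727.5 in IGF1R mice and 782.2, 1140.8 and 1533 in IGF1R-dnPI3K mice. Every IGF1R-dnPI3K mouse lay above every IGF1R mouse, and the difference was 1.12 ± 0.31 (limma adjusted p = 0.0396). The suffix of this probe set's name marks relaxed design rules. The gene's other probe set, 93108_at, differed by -0.25 ± 0.29 (adjusted p = 0.59), with 183 ± 11.7 and 160 ± 50.5 (SD, n = 3 each), so the direction for P4hb as a gene is not settled by this array.

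Qsox1, which makes disulfide bonds in secreted and matrix proteins and acts mainly beyond the endoplasmic reticulum, read 192.4, 223.6 and 232.8 in IGF1R mice on probe set 96603_at. In IGF1R-dnPI3K mice it read 123.5, 114.9 and 53.8, the last within the background. The difference was -1.24 ± 0.30 (limma adjusted p = 0.0267), and -0.86 ± 0.19 without IGF1R-dnPI3K replicate 3 (adjusted p = 0.0284). Probe set 96602_g_at, at 86.3 ± 14.4 and 108 ± 48.3 (SD, n = 3 each), differed by 0.25 ± 0.35 (adjusted p = 0.651).

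Of the chaperones, Hspa5 read 6524.5, 7209.2 and 8966.8 in IGF1R mice and 6724.6, 4772.6 and 2949.5 in IGF1R-dnPI3K mice. Only IGF1R-dnPI3K replicate 1 reached the IGF1R range, and the difference of -0.72 ± 0.25 did not pass (limma adjusted p = 0.0801). After quantile normalization it did, at -0.94 ± 0.27 (adjusted p = 0.0468), and also without that replicate 1 (adjusted p = 0.0105; range over 17 alternatives 0.0105 to 0.706). Hsp90b1 (also called GRP94), the Hsp90 of this compartment, read 2952, 2833 and 3521.2 against 3437.8, 2492.8 and 3333.1. Its means of 3102 and 3088 differed by -0.01 ± 0.14 (adjusted p = 0.955), with a 95% interval of -0.33 to 0.30. Canx, the membrane-bound lectin chaperone, differed by 0.00 ± 0.14 on probe set 94886_at (770 ± 40.7 and 775 ± 93, SD, n = 3 each). On 160180_at it differed by -0.36 ± 0.17 (adjusted p = 0.175), with every IGF1R-dnPI3K mouse (171.8 to 199.8) below the IGF1R mice (213.9 to 256.7).

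All 5 calls rested on the full set of IGF1R arrays. Without IGF1R replicate 1 or replicate 3 none of the 14 passed, and without replicate 2 only Dnajb9 96679_at did. Over 17 alternatives the call was kept in 11 for Pdia3 (adjusted p 0.00296 to 0.416) and Qsox1 (0.00977 to 0.548), 10 for Dnajb9 96680_at (0.0109 to 0.417), 5 for P4hb (0.0125 to 0.757) and 3 for Dnajc3 (0.0237 to 0.417). The direction of each was the same in all 17. The groups of these 5 did not overlap, so leaving out an array could not reverse it. No filter, no variance trend and only the 2 groups compared leave the estimate itself unchanged. The shared direction is therefore no independent support. P4hb passed without IGF1R-dnPI3K replicate 1 but was lost without any other single array, and Dnajc3 102414_i_at was lost without any one of the 9. All 5 were also lost with no filter (adjusted p 0.0504 to 0.136), with only the 2 groups compared (0.0644 to 0.103) and with the series of the mouse numbers as a term (0.416 to 0.757), where Pdia3 was -0.89 ± 0.40. In that last fit IGF1R-dnPI3K replicates 2 and 3 form a series of their own. The part of the cell type markers and 3' to 5' ratios in these differences was not tested.

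The effect of active PI3K was examined in IGF1R-caPI3K against IGF1R mice, a comparison that shares the IGF1R arrays with the one above. In limma 0 of the 14 passed, beside 0.215% of all probe sets (0.152% higher and 0.0633% lower). An unadjusted p under 0.05 was seen for 5, beside 18.4% of all. Of the 14, 7 showed no overlap between the groups, 5 lower and 2 higher in IGF1R-caPI3K mice, beside 32.9% of all (18.8% lower). Dnajb9 96680_at read 655, 689.8 and 753.8 in IGF1R-caPI3K mice, all below the lowest IGF1R mouse, with a difference of -1.70 ± 0.44 (adjusted p = 0.102). Pdia3 read 1042.8, 999.4 and 1080.3, again all below, with -0.88 ± 0.34 (adjusted p = 0.205). P4hb 161926_r_at read 1075.5, 1010.4 and 1373, all above, with 1.16 ± 0.31 (adjusted p = 0.103). These 3 probe sets passed when the wide IGF1R-dnPI3K arrays were left out of the shared spread, with adjusted p = 0.00769 for Dnajb9, 0.0125 for Pdia3 and 0.036 for P4hb (ranges over 17 alternatives 0.00605 to 0.28, 0.0125 to 0.445 and 0.036 to 0.272). The fit of those 2 groups alone called 699 of all 7898 probe sets, against 17 in the main fit, so calls rose well beyond the members. Without IGF1R-dnPI3K replicate 3 alone the same 3 passed, while 550 of all probe sets were called. With the mouse number series as a term 0 passed, and 1 of all probe sets.

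The remaining probe sets were closer. Canx 160180_at read 162.4, 164.6 and 149, all below the IGF1R mice, with a difference of -0.58 ± 0.17 (limma adjusted p = 0.123). Dnajc3 102414_i_at read 167.6, 164.5 and 168.2, also all below, with -0.41 ± 0.18 (adjusted p = 0.259). Hspa5 read 6122, 4787.2 and 6491.8, just below the lowest IGF1R mouse at 6524.5, with -0.38 ± 0.25 (adjusted p = 0.451). Hsp90b1 differed by -0.02 ± 0.14 (adjusted p = 0.964), with a 95% interval of -0.33 to 0.30. Qsox1 96603_at lay on the other side, at 251.8, 333.3 and 277, all above the IGF1R mice, with 0.40 ± 0.30 (adjusted p = 0.5). Differences of Pdia4 (-0.08 ± 0.22), Dnajc3 94343_at (-0.16 ± 0.33), Dnajb9 96679_at (-0.12 ± 0.44), Canx 94886_at (-0.12 ± 0.14), P4hb 93108_at (-0.22 ± 0.29) and Qsox1 96602_g_at (0.27 ± 0.35) were each smaller than their SE.

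**Figure D3:**
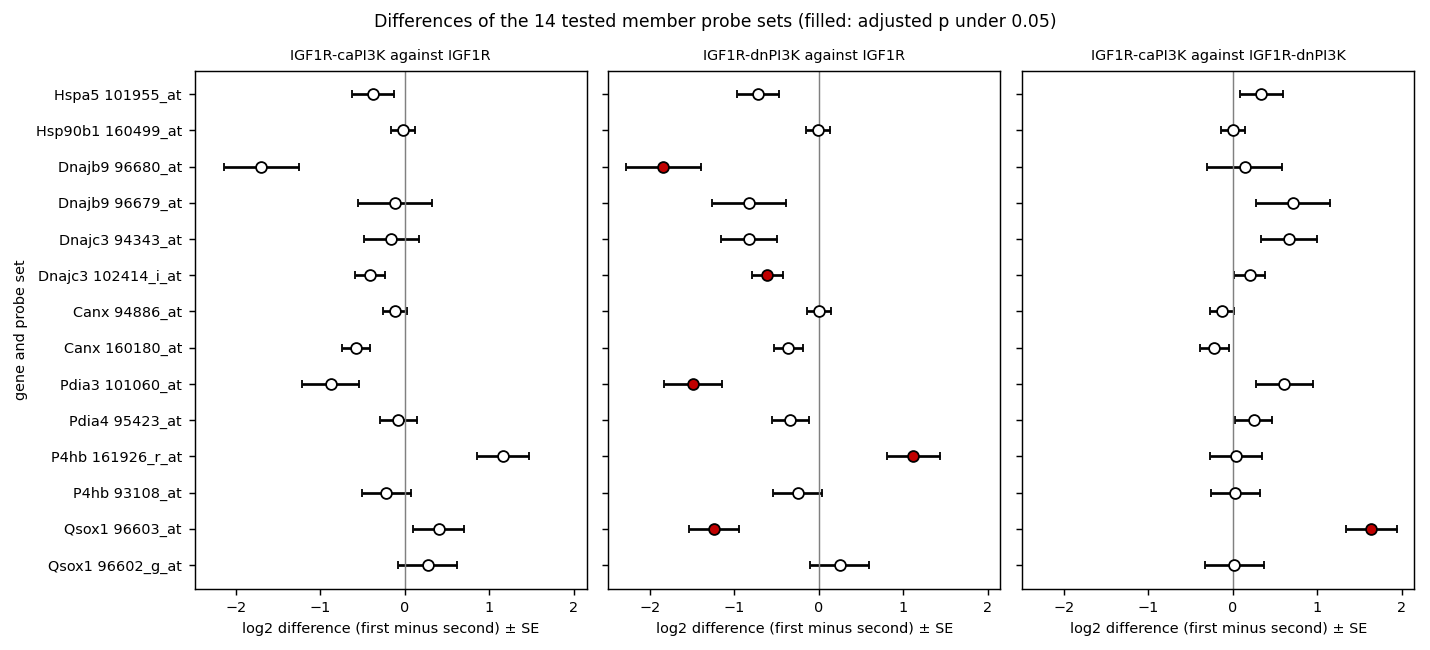
Log2 differences (x axis) with SE for the 14 tested probe sets in the 3 comparisons, filled where the adjusted p is under 0.05. Dnajb9 96680_at, Pdia3 and P4hb 161926_r_at lie on the same side in both comparisons with IGF1R mice, which share those arrays, and Qsox1 96603_at on opposite sides.

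Active and dominant negative PI3K were set against each other in IGF1R-caPI3K and IGF1R-dnPI3K mice, whose CreX ratios overlap. Qsox1 was the only member with a probe set that passed: 96603_at was higher with active PI3K, 251.8, 333.3 and 277 against 123.5, 114.9 and 53.8. The groups were wide apart, and the log2 difference was 1.64 ± 0.30 (limma adjusted p = 0.0297), 3.12-fold. That is 1 of 14 probe sets, and the only one with an unadjusted p under 0.05, beside 1.24% of all called (0.734% higher and 0.506% lower) and 15.4% at an unadjusted p under 0.05. The call was kept in 7 of 17 alternatives (adjusted p 0.00592 to 0.706), and lost with no filter, no variance trend, only the 2 groups compared or the mouse number series as a term (1.17 ± 0.46, adjusted p = 0.706). It was lost without any one of the 3 IGF1R-caPI3K arrays (0.0863 to 0.142) and without IGF1R replicate 2 (0.0556), IGF1R replicate 3 (0.057) or IGF1R-dnPI3K replicate 2 (0.0589). Its other tested probe set, 96602_g_at, differed by 0.02 ± 0.35. The fibroblast and matrix markers are higher in IGF1R-caPI3K mice in the same comparison, with 3 of 11 passing, as are the skeletal muscle markers, with 3 of 6 passing. Their part in the difference was not tested.

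Dnajb9 96680_at and P4hb 161926_r_at, which lay far from IGF1R in both groups, differed here by 0.14 ± 0.44 and 0.04 ± 0.31 (limma adjusted p = 0.909 and 0.967). Pdia3 was 1041 ± 40.5 with active and 762 ± 407 with dominant negative PI3K (SD, n = 3 each), which differed by 0.61 ± 0.34 (adjusted p = 0.423). Hspa5 was 5800 ± 897 against 4816 ± 1888, a difference of 0.34 ± 0.25 (adjusted p = 0.548). Dnajb9 96679_at was separate, at 500.4 to 574.5 against 294.2 to 380.7, but did not pass (0.71 ± 0.44, adjusted p = 0.464). Without overlap were 4 of the 14, 3 higher and 1 lower in IGF1R-caPI3K mice, beside 19.5% of all (10.9% higher and 8.66% lower). Asked over the 3 groups at once, the F test passed Dnajb9 96680_at (adjusted p = 0.0443) and Qsox1 96603_at (adjusted p = 0.0267), 2 of 14 beside 7.24% of all. Neither passed it without IGF1R replicate 1, IGF1R replicate 3 or any one of the IGF1R-caPI3K arrays, it passed 1 of the 14 without IGF1R replicate 2, and 6 without IGF1R-dnPI3K replicate 1. Over all probe sets it passed 572, but 92 without IGF1R replicate 2 and 1534 without IGF1R-dnPI3K replicate 1.

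Single arrays set much of the pattern within groups. IGF1R replicate 3 held the highest signal of 9 of the 14 probe sets, and its median log2 signal lay 0.47 above the mean of the 9 arrays. IGF1R-dnPI3K replicate 3 held the lowest signal of 6 and the highest of 2, P4hb 161926_r_at and Qsox1 96602_g_at. IGF1R-dnPI3K replicate 2 held the lowest of 4. The median of the whole array was also highest on IGF1R replicate 3 (196.7) and lowest on IGF1R-dnPI3K replicate 3 (160.6). How many of all probe sets were highest or lowest on each array was not counted, so this pattern is not particular to the members. Within IGF1R-caPI3K mice Pdia3 (SD 40.5) and Dnajb9 96680_at (SD 50.1) varied less than within IGF1R mice (435 and 930), while P4hb 93108_at (48 against 11.7) and Canx 94886_at (90.6 against 40.7) varied more.

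**Figure D4:**
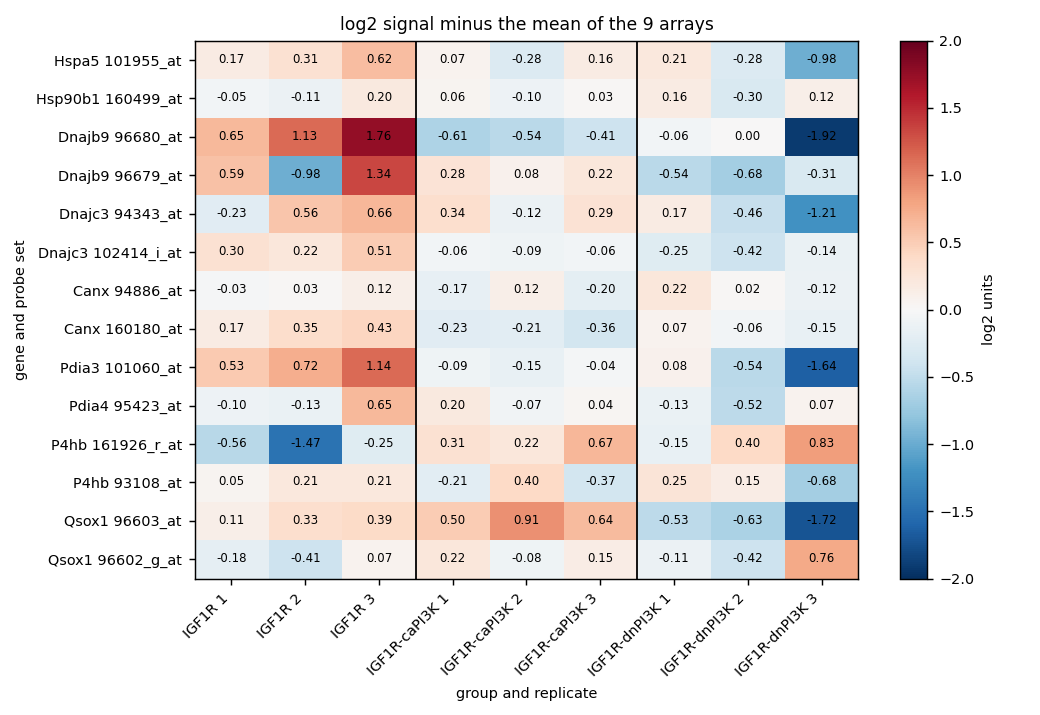
Log2 signal minus the mean of the 9 arrays (colour and printed value, log2 units) for the 14 tested probe sets (rows) and 9 arrays (columns). IGF1R replicate 3 is high and IGF1R-dnPI3K replicate 3 low for Hspa5, Dnajb9 96680_at and Pdia3, while Hsp90b1 stays within -0.30 and 0.20.

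The probe sets most like Hspa5 over the 9 arrays, among 7119 of other genes, belonged to the transcription factor Ets1 (Pearson r of log2 signal 0.982), the caveolar protein Cav1 (0.969), Xbp1 (0.967), the cohesin subunit Rad21 (0.964) and Paxbp1 (0.962). These are descriptions over 9 points that share the arrays, including IGF1R-dnPI3K replicate 3, which was lowest for all 5. Xbp1, the transcription factor of the unfolded protein response, read 1237, 1365 and 1496.2 in IGF1R mice. It read 983, 919.7 and 995.7 in IGF1R-caPI3K mice and 1139.4, 709.8 and 433.8 in IGF1R-dnPI3K mice. Both PI3K groups lay below every IGF1R mouse. For Qsox1 96603_at the most alike were Ensa (0.982), H2-T18 (0.971), Itih5 (0.953), Chordc1 (0.947) and Lgmn (0.947).

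The wider pathway was read from 4 lists. Against IGF1R mice, IGF1R-dnPI3K mice were lower for 2 of 23 tested probe sets of sensors and targets of the unfolded protein response, and higher for none, a count near the 7.80% and 5.70% of all probe sets called lower and higher. Xbp1 fell by 0.95 ± 0.27 on the log2 scale (limma adjusted p = 0.0423). Atf6, the membrane-bound sensor that becomes a transcription factor, fell from 882 ± 77.8 to 565 ± 54.8 (SD, n = 3 each), by 0.64 ± 0.13 (adjusted p = 0.0181). The list's median was 0.05, against -0.09 over all probe sets. In degradation from the endoplasmic reticulum 3 of 15 fell and none rose: both probe sets of Sel1l, an adaptor of the Hrd1 ubiquitin ligase (-0.79 ± 0.18 and -1.50 ± 0.34), and Derl2, a channel component (-0.82 ± 0.22), with a list median of -0.17, beside the same shares of all. The first list held no call without IGF1R replicate 1 or 3 and 1 without each other array except IGF1R-dnPI3K replicate 1, which left 2. The second held none without any one IGF1R array and 1 without IGF1R-dnPI3K replicate 2 or 3; without IGF1R-caPI3K replicate 1 or 3 it held 2.

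Of 37 tested probe sets of other folding and disulfide genes, 10 fell and 1 rose, beside 7.80% and 5.70% of all, with a median of -0.42. The collagen chaperone Serpinh1 fell from 3917 ± 173 to 1883 ± 895 (SD, n = 3 each), by 1.16 ± 0.25 on the log2 scale (limma adjusted p = 0.0189). The calcium-binding Rcn2 changed by -0.94 ± 0.15, the collagen prolyl hydroxylase subunits P4ha2 by -0.57 ± 0.13 and P4ha1 by -0.76 ± 0.19, and the prolyl isomerase Fkbp9 by -0.60 ± 0.14. Clgn, a relative of Canx known from testis, rose by 1.03 ± 0.24 on a probe set of relaxed design (adjusted p = 0.0242). Several of these enzymes act on collagen, and the fibroblast and matrix markers given above fell in the same mice. The count went from 11 to 2 without IGF1R replicate 1 or 2, to 1 without IGF1R replicate 3, to 4 without IGF1R-dnPI3K replicate 3, to 7 without IGF1R-dnPI3K replicate 2 or any one IGF1R-caPI3K array, and to 18 without IGF1R-dnPI3K replicate 1. In that last fit the calls over all probe sets rose too, from 1066 to 1861.

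In translocation and glycosylation at the membrane 3 of 35 fell and 1 rose, near or under the 7.80% and 5.70% of all, with a median of -0.29. The oligosaccharyltransferase subunit Dad1 rose from 1918 ± 264 to 4138 ± 1297 (SD, n = 3 each), by 1.07 ± 0.19 (limma adjusted p = 0.0136). Stt3b, a catalytic subunit of the same enzyme, changed by -0.78 ± 0.19, and single probe sets of the subunits Rpn1 and Rpn2 fell too (adjusted p = 0.0423 and 0.0466), while the other tested probe set of each differed by -0.14 ± 0.13 and -0.13 ± 0.13. The other tested probe set of Dad1 differed by 0.28 ± 0.30 (limma adjusted p = 0.548). Single called probe sets of subunits of one enzyme thus lay on both sides. The 4 calls became 0 without IGF1R replicate 3, 1 without IGF1R replicate 1 or 2, 2 without any one IGF1R-caPI3K array and 10 without IGF1R-dnPI3K replicate 1. That last fit called 1861 of all probe sets, against 1066 in the main fit.

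In IGF1R-caPI3K against IGF1R mice no probe set of the 4 lists passed in limma. The lowest p values belonged to 1 probe set of Plod3, a lysyl hydroxylase (0.62 ± 0.13, adjusted p = 0.0601, while its other tested probe sets differed by -0.66 ± 0.31 and 0.13 ± 0.31), and Rcn2 (-0.67 ± 0.15, adjusted p = 0.077) among folding genes. They belonged to Vldlr (-0.65 ± 0.19) and Atf6 (-0.37 ± 0.13) among stress response genes, Sel1l (-0.61 ± 0.18) and Selenos (-0.44 ± 0.17) in degradation, and Dad1 (0.80 ± 0.19) and Ddost (-0.60 ± 0.17) in translocation. The other tested probe sets of Vldlr, Sel1l and Dad1 differed by -0.24 ± 0.20, -0.87 ± 0.34 and 0.27 ± 0.30. Without IGF1R-dnPI3K replicate 3 in the shared spread, 5 folding probe sets passed, 4 higher and 1 lower, as did 4 of translocation and 1 of the stress response. Without replicate 1 of that group 1 of translocation passed, and after quantile normalization 1 each of folding and translocation. The calls over all probe sets rose too, from 17 in the main fit to 550, 89 and 78 in these 3 fits.

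In IGF1R-caPI3K against IGF1R-dnPI3K mice 3 of 37 folding probe sets were higher and none lower, beside 0.734% and 0.506% of all. P4ha1 was 1150 ± 179 with active and 509 ± 132 with dominant negative PI3K (SD, n = 3 each), and differed by 1.19 ± 0.19 (limma adjusted p = 0.0179). P4ha2 differed by 0.76 ± 0.13, and Txndc5, a disulfide isomerase of fibroblasts and endothelium, by 0.65 ± 0.12 (adjusted p = 0.0278). The list had a median of 0.21, against 0.05 over all. The 3 calls were lost without any one IGF1R-caPI3K array or without IGF1R-dnPI3K replicate 2, became 2 without IGF1R replicate 3 and 6 without IGF1R-dnPI3K replicate 1. Without that replicate 1 the calls over all probe sets went from 98 to 539. None passed in the other 3 lists, except for 2 of the stress response and 1 of degradation without IGF1R-dnPI3K replicate 1. The lowest p values there were those of Nupr1 (1.21 ± 0.30) and Atf4 (0.41 ± 0.11), Derl2 (0.76 ± 0.22) and 1 probe set of Sel1l (0.64 ± 0.34), and 2 probe sets of Ssr3 (0.32 ± 0.12 and 0.36 ± 0.16).

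**Figure D5:**
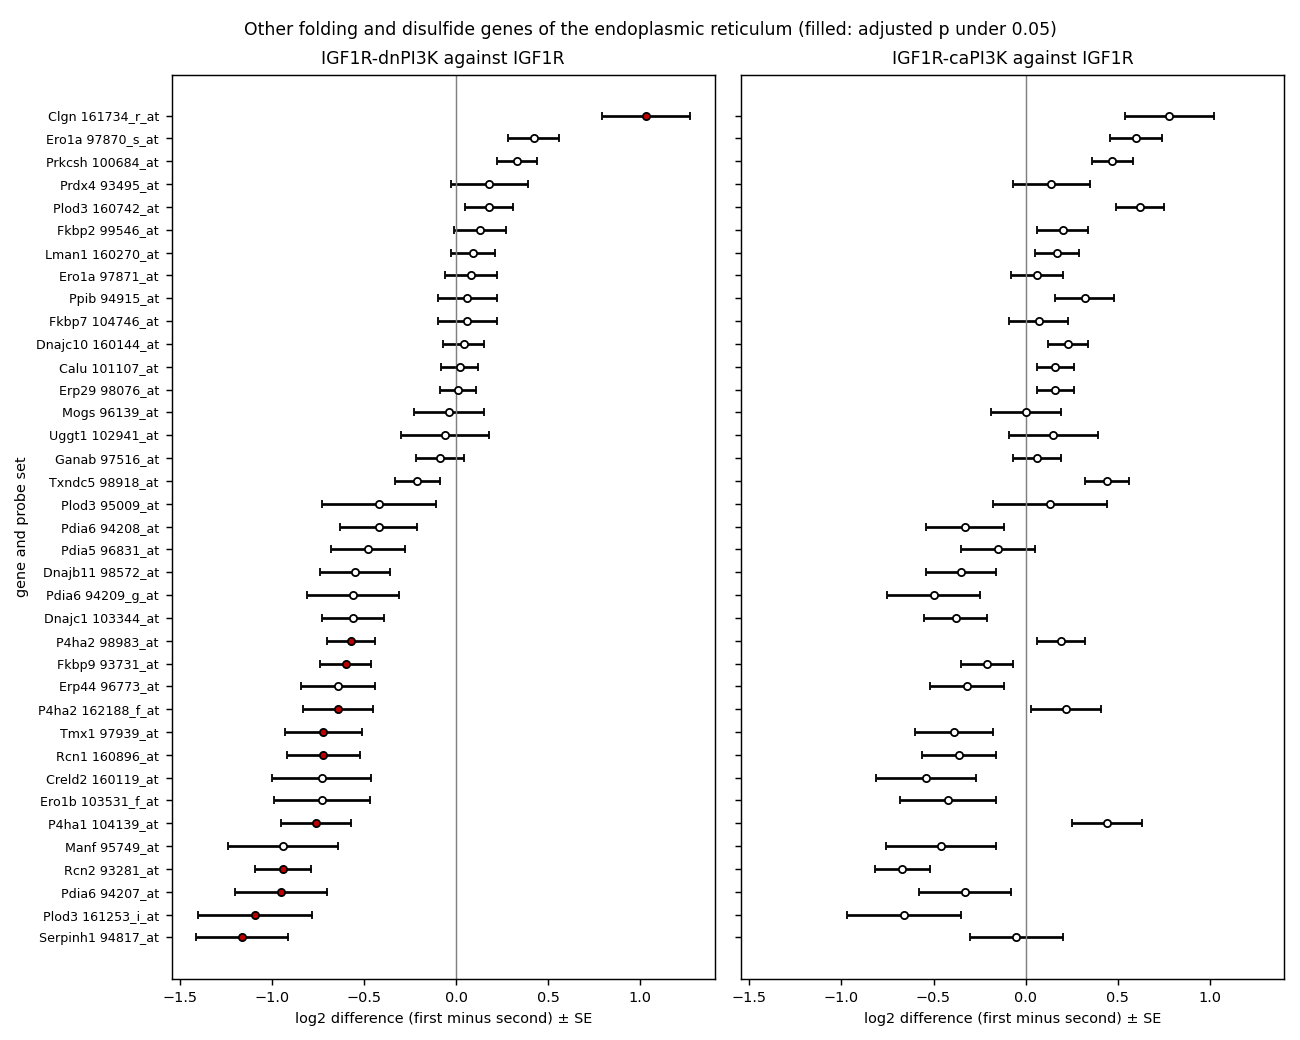
Log2 differences (x axis) with SE for the 37 tested probe sets of the other folding and disulfide genes, ordered by the IGF1R-dnPI3K comparison (left) and shown in the same order for IGF1R-caPI3K (right), both against IGF1R. Filled points passed: 10 lower and 1 higher on the left, none on the right.

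The calls can be set beside the upstream sequences shown first. Of the genes that hold the complete element, Dnajc3 passed on 1 of its probe sets, Hspa5, Hsp90b1 and Canx on none, and Calr was not measured above background. Of the genes without it, Dnajb9, Pdia3, P4hb and Qsox1 passed on 1 probe set each and Pdia4 on none. A match in this window is a description of letters only.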

How the data were processed

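RNA of 9 mouse ventricle samples was measured on 1 array each. The deposited values are linear-scale intensities, 1 for each probe set on each array; how the authors computed them and any detection calls were not given in the sources used here. From the deposited values, each array had been scaled to a 2% trimmed mean of about 500. Groups came from the titles, and replicate numbers follow the order of deposit and pair nothing.

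Of 12488 rows, 66 controls were left out. Of the others, 10833 had 1 gene symbol in the platform annotation, 396 several and 1193 none; none was named from several. Values under 32.4, the 20th percentile of all values, were set to it before log2. To be tested, a probe set had to exceed the 40th percentile of an array on 3 arrays or more, as 7898 did. All 9 arrays entered 1 limma 3.58.1 model (R 4.3.3) with a variance trend; p-values were adjusted by Benjamini-Hochberg and measure only the spread between these arrays. On simulated data for IGF1R-dnPI3K against IGF1R (7898 probe sets) the model recovered 20% of log2 changes of 0.5, 58% of 1 and 90% of 2. The simulation drew independent normal values and gave each probe set the same SD in all groups. On the real arrays the median SD of log2 signal was 0.26 for IGF1R-dnPI3K and 0.16 for each other group. Recovery under that unequal spread was not tested.

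Every probe set of the members is accounted for. Of each pathway list, up to 5 called genes in each direction were named, or the 2 with the lowest p. For likeness, the 5 probe sets of other genes with the highest Pearson r were taken. The members and lists were chosen with earlier results of these data known. Marker lists not given in the report were endothelial (summed signal 11067 to 12460 in IGF1R, 9558 to 10961 in IGF1R-caPI3K and 9826 to 12524 in IGF1R-dnPI3K; 1 rose and 2 fell of 9 in IGF1R-dnPI3K against IGF1R) and red blood cell (16932 to 18215 in IGF1R, 19053 to 21202 in IGF1R-caPI3K and 20611 to 36516 in IGF1R-dnPI3K, 0 of 3 called). Between arrays of a group 18 to 29 values were identical. Alternatives were other normalizations, floors, filters and variance models, only the 2 groups compared, the mouse number series as a term, and each array left out in turn. Promoter sequences are those of RefSeq on GRCm38.p6.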

Additional observations from a re-analysis of the deposited data

How the results depend on the processing

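No paired analysis was possible because the titles give mouse numbers and no replicate number that groups share. IGF1R and IGF1R-caPI3K mice do share 2 series of numbers, 1 and 2 mice of each group, and the series was fitted as a term below. Of 42 member differences under 17 alternatives (714 values), 608 kept their direction and side of the threshold, 55 lost and 10 gained the call, and 41 changed sign, none of these among the 6 called differences. The groups of those 6 did not overlap, so leaving out an array could not change their sign. The counts of calls depended on the processing, and the cause was not tested.

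For IGF1R-dnPI3K against IGF1R, 5 member probe sets passed, and 0 did with no filter, with only the 2 groups compared or with the mouse number series as a term, 3 without a variance trend, and 0 to 6 when 1 array was left out. For IGF1R-caPI3K against IGF1R, 0 passed, and 3 did with only the 2 groups compared; 0 to 3 did leaving out 1 array. For IGF1R-caPI3K against IGF1R-dnPI3K, 1 passed, and 0 did with no filter, no variance trend, only the 2 groups compared or the number series; 0 to 1 did leaving out 1 array. The F test passed 2, against 4 with a common median, 0 with no filter or the number series, 1 without a trend and 0 to 6 leaving out 1 array.

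Over all probe sets, IGF1R-caPI3K against IGF1R gave 17 calls (70.6% higher), and 78 after quantile normalization (57.7% higher), 3 with a common median, 67 with the floor at the 40th percentile, 0 with no filter, 7 without a trend, 699 with only the 2 groups compared, 1 with the number series and 0 to 550 leaving out 1 array. IGF1R-dnPI3K against IGF1R gave 1066 (42.2% higher), and 387 with no filter, 657 without a trend, 132 with only the 2 groups compared, 5 with the number series and 73 to 1861 leaving out 1 array; with a common median 71.4% of 1165 were higher. IGF1R-caPI3K against IGF1R-dnPI3K gave 98, and 36, 45, 13, 8 and 10 to 539 under those alternatives. The F test gave 572, and 158 with no filter, 137 without a trend, 4 with the number series and 48 to 1534 leaving out 1 array.

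Sign changes touched small differences. In IGF1R-caPI3K against IGF1R-dnPI3K, quantile normalization gave 0.04 for Hsp90b1, -0.03 for P4hb 93108_at and -0.05 for Qsox1 96602_g_at. A common median gave -0.03 for P4hb 161926_r_at, -0.04 for P4hb 93108_at and -0.05 for Qsox1 96602_g_at, and the higher floor gave -0.01 and -0.18 for the last pair. The number series gave -0.05 for Hspa5, -0.22 for Dnajb9 96680_at and -0.37 for P4hb 93108_at. Against IGF1R a common median gave 0.09 (IGF1R-caPI3K) and 0.15 (IGF1R-dnPI3K) for Hsp90b1 and 0.02 for Pdia4 (IGF1R-caPI3K). The number series gave 0.03 for Hsp90b1, 0.15 for P4hb 93108_at and -0.12 for Qsox1 96602_g_at in IGF1R-dnPI3K mice, a fit in which only IGF1R-dnPI3K replicate 1 shares a series with other mice. Leaving out 1 array, the ranges that crossed 0 in IGF1R-caPI3K against IGF1R were -0.77 to 0.39 for Dnajb9 96679_at, -0.44 to 0.01 for Dnajc3 94343_at, -0.08 to 0.08 for Hsp90b1 and -0.22 to 0.17 for Pdia4. In IGF1R-dnPI3K against IGF1R they were -0.09 to 0.08 for Canx 94886_at, -0.10 to 0.13 for Hsp90b1, -0.42 to 0.05 for P4hb 93108_at and -0.09 to 0.50 for Qsox1 96602_g_at. In IGF1R-caPI3K against IGF1R-dnPI3K they were -0.49 to 0.47 for Dnajb9 96680_at, -0.15 to 0.08 for Hsp90b1, -0.21 to 0.27 for P4hb 161926_r_at, -0.27 to 0.20 for P4hb 93108_at and -0.23 to 0.36 for Qsox1 96602_g_at.

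The counts for the 4 pathway lists with each array left out, and after quantile normalization, were an alternative chosen after seeing the data. The number of arrays limits the precision, and signals near the background of 59.4, such as Qsox1 96603_at in IGF1R-dnPI3K replicate 3, give the size of a fall only roughly.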
